A study of Homo sapiens with 6 samples.

Results

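Keratins are the intermediate filament proteins of epithelial cells. The genes described here are those whose symbol is KRT followed directly by a number, without the keratin-associated proteins and pseudogenes, taken from probe sets that carry only that symbol. The brightest probe set stood for each gene, which gave 44 keratin genes of 19775 genes on the array, from 56 probe sets. Another 11 keratins of the gene table, among them KRT17, KRT6A, KRT81 and KRT86, were not analysed here. RNA came from MDA-MB-231, a line of invasive breast cancer cells that lacks hormone receptors and HER2 amplification and has a mesenchymal form. All cells, controls included, carried a pLKO.1 lentiviral vector and had been kept for 2 weeks under puromycin (1.0 µg/ml). They were at passage 2. The 3 control arrays held RNA of cells with a hairpin against GFP (shGFP), and the 3 knockdown arrays RNA of cells with a stable hairpin against ATAD3A (shATAD3A), an ATPase of the inner mitochondrial membrane. The number of hairpins or clones is not in the labels, nor is it said that replicates came from separate cultures, so the error behind each p-value is that between arrays of a group and may be technical.

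A keratin filament is built from pairs of a type I (acidic) and a type II (basic) keratin, so that each chain needs a partner of the other type. Simple epithelia, such as the luminal layer of the breast, use mainly KRT8 and KRT18 with KRT7 and KRT19, the basal layer uses KRT5 and KRT14, and the skin surface and hair use further pairs. Most type I genes lie in a cluster on chromosome 17 and most type II genes in one on chromosome 12, where the type I gene KRT18 lies next to its partner KRT8. Keratin filaments are anchored at desmosomes and hemidesmosomes, and loss of keratins with gain of vimentin is a usual sign of a mesenchymal state.

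ATAD3A, the gene targeted, read 7.73, 7.78 and 7.80 in control and 7.41, 7.03 and 7.39 in knockdown, on a log2 scale as all values here. The groups did not overlap, and ATAD3A changed by -0.49 ± 0.11 (SE; limma adjusted p = 0.0129), to 0.71 of the control level. These values come from a probe set of the x_at type, whose probes may also match related transcripts. Under 17 alternatives the change ran from -0.56 to -0.37, and the call stayed the same in 15. Correlations between arrays were 0.9986 to 0.9991 within groups and 0.989 to 0.9898 between groups, taken over probe sets, which are no independent replicates. Array medians were 3.16 to 3.23. The number of arrays limits the precision.

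The keratins KRT7, KRT80, KRT8, KRT18 and KRT19 rose in the knockdown arrays, by 4.67-fold, 2.74-fold, 2.68-fold, 1.99-fold and 1.19-fold. KRT7, KRT8, KRT18 and KRT19 are used in simple epithelia, and KRT80 is found in many epithelia. By limma at an adjusted p of 0.05, 5 of the 44 keratin genes rose (11.4%) and 0 fell. Over all genes, 19.7% rose and 13.9% fell by the same rule. The median change of the 44 was -0.0033, beside -0.00084 over all genes. Groups did not overlap for 8 keratins (18.2%), 6 of them higher and 2 lower, beside 42% of all genes. The share of keratins called was thus below that over the array.

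Most of the family gave little signal. Over all genes the values have a peak at the bottom of the scale, the low mode, and a wide second hump. The lowest point between them, 4.77, was taken as the upper edge of the low mode after seeing the data. In both groups the mean of 37 keratins lay below it, with single array values between 1.55 and 3.51. The changes of these 37 ran from -0.037 to 0.074, 15 above and 22 below 0. By limma 0 of them were called, 0 had an unadjusted p under 0.05, and the smallest adjusted p was 0.484. The remaining 7 were KRT7, KRT8, KRT80, KRT18, KRT19, KRT10 and KRT15. Among all genes with a mean above the low mode, 36.5% rose and 25.4% fell, beside 5 and 0 of these 7 keratins. Among genes with a mean above 9, 38.2% rose, and 5 of the 6 keratins at such a level rose. In that range 2.81% of genes rose by at least 2-fold, and 3 of the 6 keratins did so. The level of 9 was chosen after seeing the data.

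**Figure D1:**
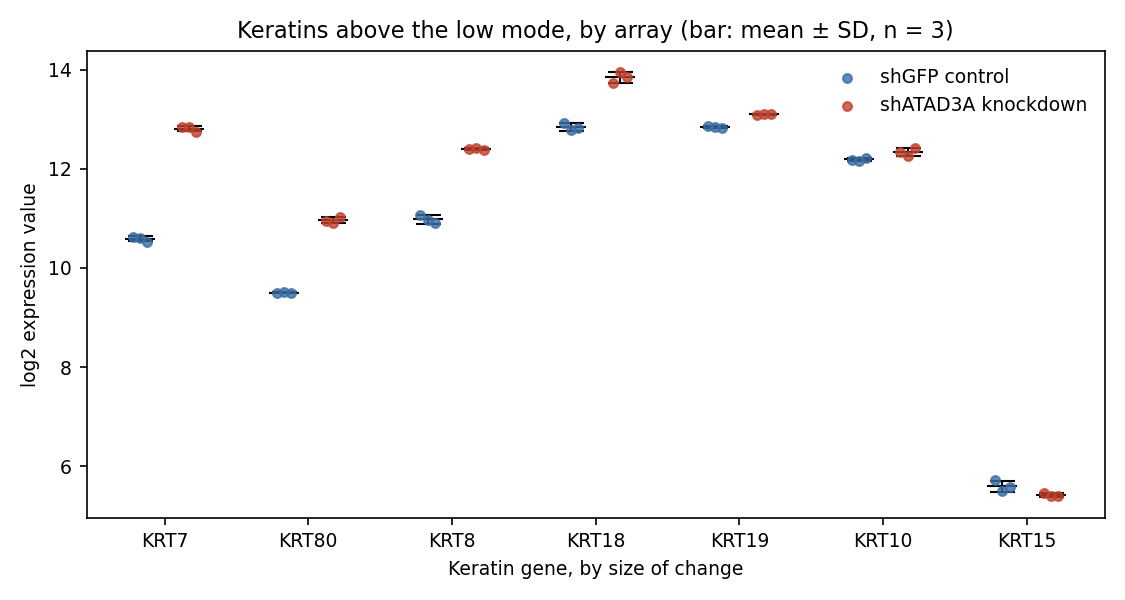
Log2 expression value (vertical axis) of the 7 keratins above the low mode in each shGFP control array (blue) and shATAD3A knockdown array (red), ordered by size of change, with bars for mean ± SD (n = 3). The knockdown arrays of KRT7, KRT80, KRT8, KRT18, KRT19 and KRT10 all lie above their control arrays, and those of KRT15 lie below.

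Among type II chains, KRT7, a keratin of glandular and ductal epithelium, changed most. It read 10.63, 10.60 and 10.53 in control and 12.85, 12.84 and 12.74 in knockdown. Every knockdown array was more than the whole control spread above every control array, and the change was 2.22 ± 0.043 (SE; limma adjusted p = 1.58e-06). Its increase ranked 138 of 19775 genes. These values come from a probe set of the s_at type, which can match several transcripts. The other 3 KRT7 probe sets lay in the low mode, with control means of 2.61, 2.70 and 1.49, and gave 0.24, 0.015 and 0.024 with no call. In the average of all KRT7 probe sets the change was 0.63 (limma adjusted p = 0.00014), and on the probe set that is neither s_at nor x_at it was 0.024 (adjusted p = 0.741). The KRT7 call thus rests on 1 of its 4 probe sets.

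KRT80, a type II keratin found in many epithelia, read 9.50, 9.51 and 9.50 in control and 10.94, 10.91 and 11.03 in knockdown. The control arrays were almost alike and all knockdown arrays were higher. The change was 1.45 ± 0.038 (SE; limma adjusted p = 3.81e-06), on the single KRT80 probe set, which is of the plain type made for 1 transcript.

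KRT8, the type II chain of simple epithelia, read 11.07, 10.96 and 10.90 in control and 12.40, 12.42 and 12.37 in knockdown. The knockdown arrays lay close together, above all control arrays, and the change was 1.42 ± 0.048 (SE; limma adjusted p = 8.87e-06). The single KRT8 probe set is of the x_at type, whose probes may also match related transcripts, and KRT8 has many processed pseudogenes. The probe sets of the pseudogene KRT8P12 had control means of 4.28 and 2.88 and changes of 0.091 and -0.0094, without a call.

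KRT18, the type I partner of KRT8, read 12.93, 12.79 and 12.82 in control and 13.73, 13.94 and 13.86 in knockdown. All knockdown arrays were above all control arrays. The change was 1.00 ± 0.068 (SE; limma adjusted p = 0.000105), again on a single probe set of the x_at type.

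KRT19, a type I chain of simple and ductal epithelium that lacks most of the usual tail domain, read 12.87, 12.85 and 12.83 in control and 13.09, 13.11 and 13.10 in knockdown. The gap between groups was small but several times the spread within either group, with a change of 0.25 ± 0.026 (SE; limma adjusted p = 0.000662). A dim second probe set, at 2.02 in control, gave -0.018 (adjusted p = 0.795).

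KRT10, a type I chain best known from the upper epidermis, read 12.19, 12.15 and 12.22 in control and 12.34, 12.25 and 12.41 in knockdown. Although the groups did not overlap, the change of 0.15 ± 0.048 (SE) missed the threshold (limma adjusted p = 0.0606). Its other probe sets gave 0.18 (adjusted p = 0.025) and 0.17 (adjusted p = 0.104), and the average of the 3 gave 0.16 (adjusted p = 0.0114). Without knockdown replicate 2 KRT10 passed, at 0.19 (adjusted p = 0.0198). KRT15, a type I chain of basal cells and hair follicle stem cells, lay just above the low mode. It read 5.72, 5.49 and 5.57 in control and 5.47, 5.41 and 5.40 in knockdown. The KRT15 change was -0.17 ± 0.063 (SE; limma adjusted p = 0.0976). Without control replicate 2 the KRT15 change passed, at -0.22 (adjusted p = 0.0426).

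The fitted changes of the 5 keratins that rose were compared in pairs, each gene on its own probe set, and probe sets at different levels may respond differently. The change of KRT18 was below that of KRT8 in the same arrays, with a difference of -0.42. The spread of the per-array difference between the genes was 0.047 in control and 0.11 in knockdown (SD, n = 3). The change of KRT7 was above that of KRT8, by 0.80, and that of KRT19 was below that of KRT7, at -1.98. Of the 10 pairs among the 5 genes, 9 had per-array differences that did not overlap between groups. In an exact two-sided permutation test these 9 gave p = 0.1, which is the smallest that 3 arrays against 3 allow, so none could pass. KRT8 and KRT80 differed by -0.035, with p = 0.8 in the same exact test, and their groups overlapped. The 5 genes share arrays, and the 10 tests are not independent.

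By type, 3 of 20 measured type II keratins rose (KRT7, KRT8 and KRT80) and 2 of 23 type I keratins (KRT18 and KRT19), with 0 lower in either type. These are 15% and 8.7% higher, beside 19.7% higher and 13.9% lower over all genes. KRT222, which was kept apart from both types, was in the low mode. By tissue, 5 of 7 keratins listed as simple epithelial, KRT80 among them, rose, with a median change of 1.00 over the 7. The remaining 2, KRT20 and KRT23, were in the low mode. This grouping was made with earlier results of these data known and is no independent support. Of 17 basal and stratified keratins 0 were called, and of 19 hair and root sheath keratins 0 were called, all 19 in the low mode. KRT5, the type II chain of basal epithelium, read 1.81, 1.85 and 1.85 in control and 1.84, 1.80 and 1.80 in knockdown (change -0.026, adjusted p = 0.655). KRT14, its type I partner, read 2.20, 2.26 and 2.26 in control and 2.27, 2.19 and 2.21 in knockdown (change -0.017, adjusted p = 0.847). Both basal chains thus stayed in the low mode with overlapping groups, and KRT9, KRT1 and KRT16 did too.

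**Figure D2:**
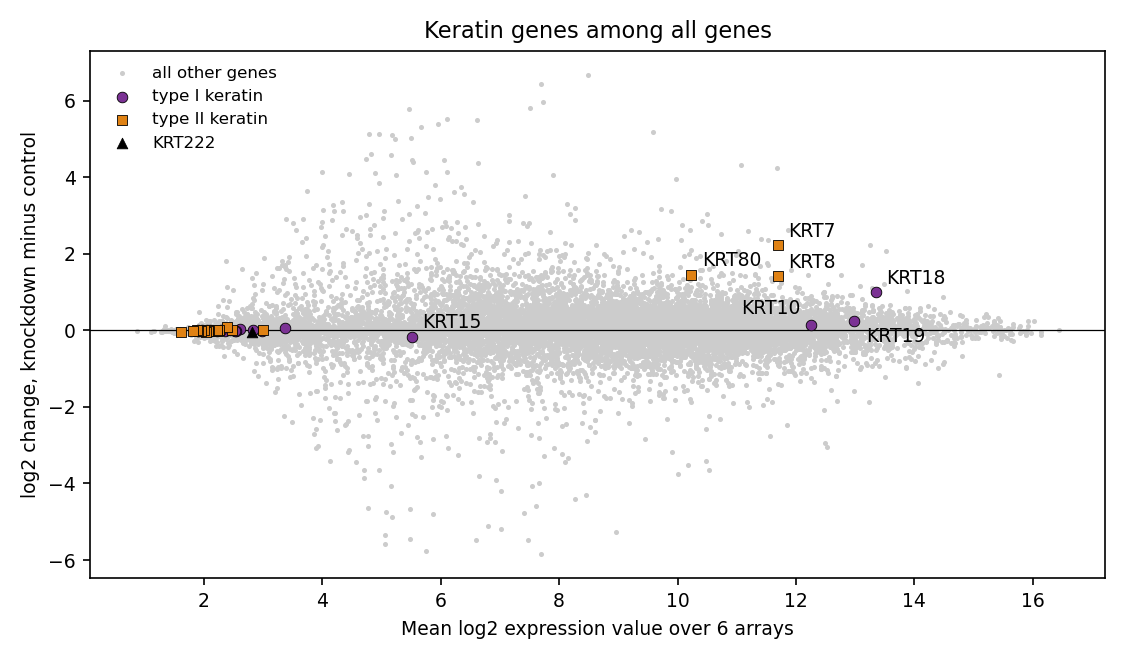
Mean log2 expression value over the 6 arrays (horizontal axis) against the log2 change, knockdown minus control (vertical axis), for type I keratins (circles), type II keratins (squares), KRT222 (triangle) and all other genes (grey). The 37 keratins of the low mode sit at the left on the zero line, and KRT7, KRT8, KRT80 and KRT18 lie at the upper edge of the cloud at the right.

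The chromosome 12 cluster held 4 of the 5 genes that rose. Of its 21 measured keratins these 4 were KRT80 and KRT7 at one end and KRT8 and KRT18 at the other, with 17 low-mode keratins between them. The chromosome 17 cluster held 23 measured keratins, of which KRT19 rose. The nearest 25 measured genes outside the family on either side had a median change of 0.050 around KRT7, KRT8 and KRT18 and 0.081 around KRT80. Around KRT19 that median was 0.010. These medians include neighbours in the low mode, whose changes lie mostly near 0, so they can hide changes of brighter neighbours. With the neighbour median subtracted, the keratins called were again 5 higher and 0 lower, by limma statistics with the median taken as free of error. The changes were then 2.17 for KRT7, 1.37 for KRT8, 1.37 for KRT80, 0.95 for KRT18 and 0.24 for KRT19. As the medians were small, the subtraction could hardly alter these calls. Whether the keratins rose together with their brighter neighbours was not tested. Of the 52 other measured genes in and around the chromosome 12 cluster, 19 rose (36.5%) and 2 fell (3.85%), and of 75 around the chromosome 17 cluster 11 rose (14.7%) and 4 fell (5.33%). The shares over all genes were 19.7% and 13.9%, and among genes with a mean above the low mode 36.5% and 25.4%. Every neighbour called had a mean above the low mode. Neighbours in the low mode, such as the keratin-associated proteins on chromosome 17 and many genes on chromosome 12, thus lower the shares around the clusters. The 36.5% around the chromosome 12 cluster counts such dim genes, so it is not like for like with the 36.5% above the low mode. The largest rise among the chromosome 12 neighbours was that of IGFBP6, by 2.52. The 2 that fell were TMT1A (-0.87) and DAZAP2 (-0.26). The order of genes is that of the GRCh38.p14 table.

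**Figure D3:**
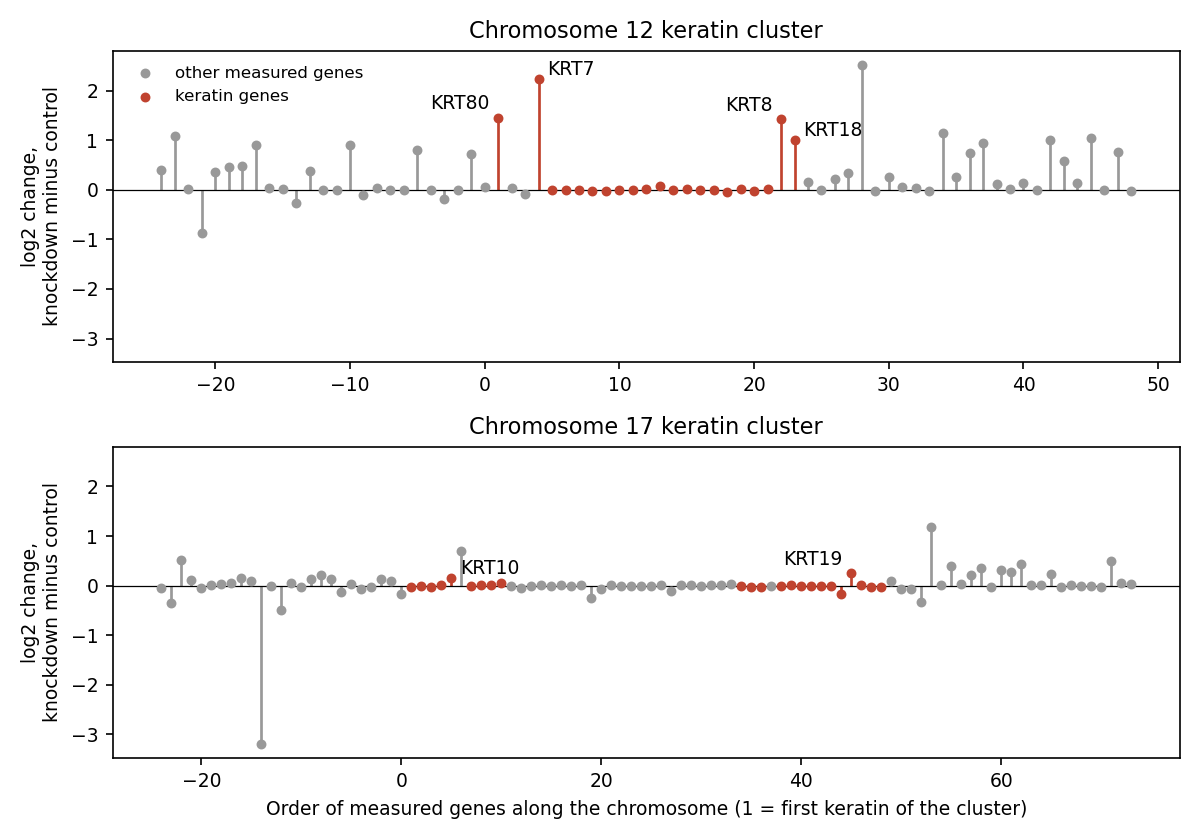
Log2 change, knockdown minus control (vertical axis), of measured genes in chromosomal order (horizontal axis, counted from the first keratin of the cluster) for the keratin clusters of chromosomes 12 and 17 with 25 genes beyond each end. Keratins are red and other genes grey, and the 4 keratins that rose on chromosome 12 stand at the ends of a run of 17 keratins near 0.

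Promoter sequence from RefSeq (GRCh38.p14) was at hand for 29 of the 44 keratins, and of the 7 above the low mode for KRT8 and KRT10, one that rose and one that missed the threshold. The 250 bases before the listed start are shown for both, as the stretch in which the motif search was made, with matches in capitals. That of KRT8 is chr12:52926470-52926719 and that of KRT10 chr17:40822615-40822864, both on the minus strand and printed 5′ to 3′. The KRT8 stretch lies inside the span of the gene in the gene table, so it belongs to one of several starts.
KRT8: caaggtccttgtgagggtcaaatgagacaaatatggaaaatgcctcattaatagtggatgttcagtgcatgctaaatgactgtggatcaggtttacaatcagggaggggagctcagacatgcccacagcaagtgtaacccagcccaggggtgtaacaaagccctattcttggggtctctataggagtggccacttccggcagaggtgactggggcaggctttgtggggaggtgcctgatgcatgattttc
KRT10: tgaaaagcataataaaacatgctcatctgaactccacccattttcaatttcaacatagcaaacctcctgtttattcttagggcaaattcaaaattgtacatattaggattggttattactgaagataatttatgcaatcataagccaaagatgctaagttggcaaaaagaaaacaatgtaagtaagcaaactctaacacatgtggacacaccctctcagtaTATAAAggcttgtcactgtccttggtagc

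Both strands were searched for 4 short motifs. They were TATAAA, the core promoter element bound by TBP, then GGGCGG, the box bound by SP1, then CACCTG, an E-box bound by ZEB and SNAI repressors, and last TGANTCA, the site of AP-1 factors. KRT10 held 1 TATAAA, starting at position -29 from the listed start, and none of the other motifs, and the KRT8 stretch held none of the 4. Of the 29 keratin windows 15 held TATAAA, beside 10.8% of 34788 windows of the same length over all genes. GGGCGG was in 4 of 29 (42.6% of all windows), CACCTG in 4 of 29 (17.5%) and TGANTCA in 0 of 29 (6.59%). These are matches of letters in a fixed window, and nothing about binding was measured.

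Genes that anchor keratin filaments or link them to membranes and other fibres went both ways. Of 23 measured, 10 rose and 4 fell, with a median change of 0.11, beside -0.00084 over all genes. Of the 15 with a mean above the low mode 9 rose and 4 fell, where 36.5% and 25.4% of all such genes did. PPL, the plakin periplakin, rose by 1.35 ± 0.15 (SE; limma adjusted p = 0.000795). The desmosomal cadherin DSC2 rose by 1.21 on its brightest probe set, with no call on 3 dim ones. The desmosomal plaque protein PKP3 rose by 1.16, while a second PKP3 probe set in the low mode gave 0.014 without a call, and the average of both was 0.59. ITGA6, the hemidesmosomal integrin chain, changed by -0.86 and PLEC (plectin), which ties keratins to hemidesmosomes, by -0.74. DSP, the desmoplakin that binds keratins at desmosomes, read 12.14 ± 0.036 in control and 11.79 ± 0.096 in knockdown (SD, n = 3), a change of -0.35 (limma adjusted p = 0.00334).

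Of 22 measured genes for keratin binding and turnover, 11 rose and 5 fell, with a median change of 0.28. All but 1 had a mean above the low mode, where 36.5% of all genes rose and 25.4% fell. FAM83H, which places a casein kinase on keratin filaments, read 4.31 ± 0.52 in control and 6.93 ± 0.21 in knockdown (SD, n = 3). This is a change of 2.62 (limma adjusted p = 0.000539). It is imprecise because the control arrays lay far apart, at 3.79, 4.83 and 4.29, with their mean in the low mode. A second FAM83H probe set gave -0.017 without a call. The atypical protein kinase C PRKCZ rose by 1.64, and SFN, a 14-3-3 protein of epithelial cells that binds keratins, rose by 0.99. DNAJB6, a chaperone that binds KRT18, changed by -0.52, and TCHP (trichoplein), which binds KRT8 and KRT18 filaments, by -0.51, with -0.017 and no call on a second TCHP probe set. PNN (pinin), a nuclear and desmosome-associated protein, changed by -0.36 on its brightest probe set, while another PNN probe set rose by 0.33, so its probe sets disagree.

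Of 18 other intermediate filament genes measured, 5 rose (27.8%) and 2 fell (11.1%), with a median change of -0.0090. Over all genes 19.7% rose and 13.9% fell, so these shares are near the background. BFSP1, a beaded filament protein of the lens, rose by 1.18, IFFO2 by 0.53 and the lamin LMNB2 by 0.51. SYNM (synemin) changed by -0.31 and the lamin LMNA by -0.27 (limma adjusted p = 0.0124). For LMNA the call was lost with the replicate number as a block (adjusted p = 0.0522) and after centring each array on its median (adjusted p = 0.0528). Its probe set of the plain type gave -0.022, and 2 of the x_at type gave -0.034 and -0.036, all without a call. Other LMNA probe sets were called lower by limma, at -0.32 (adjusted p = 0.00896) and -0.16 (adjusted p = 0.032). VIM, the mesenchymal filament vimentin, named here after its values were seen, had a mean of 15.15 in control and 15.17 in knockdown, a change of 0.019 (limma adjusted p = 0.879). In the average of the VIM probe sets the change was -0.21 (adjusted p = 0.0517). VIM is near the top of the scale, where an array may respond less than in proportion.

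Of 33 measured transcription factors tied to keratin expression, 10 fell (30.3%) and 4 rose (12.1%), with a median change of -0.026. Of the 18 with a mean above the low mode 10 fell and 3 rose, beside 25.4% and 36.5% of all such genes. TFAP2C, an AP-2 factor of luminal cells, had means of 10.40 ± 0.052 in control and 7.97 ± 0.086 in knockdown (SD, n = 3), with a change of -2.43 (limma adjusted p = 2.20e-06). The epithelial ETS factor EHF changed by -1.58 and SOX9 by -1.16. ELF3, another epithelial ETS factor, which was in the low mode in control, rose by 2.28, and by 3.02 and 2.56 on its other probe sets. GRHL1, a grainyhead factor, rose by 1.06 (0.025 and no call on a second, dim probe set) and KLF4 by 0.65. ZEB1 and SNAI2, repressors of epithelial genes named here after their values were seen, changed by -0.45 and -0.65 (adjusted p = 0.000275 and 5.7e-05).

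Genes of the cornified envelope, the protein shell of surface keratinocytes, mostly stayed in the low mode, 16 of 18 in both groups. Of the 18, 3 rose (16.7%) and 0 fell, beside 19.7% and 13.9% of all genes, so the share that rose was not above the background. DMKN (dermokine), dim in control, rose by 5.52, CNFN by 0.78 within the low mode, and FLG (filaggrin) by 0.74. Keratin-associated proteins, the matrix of hair, were all in the low mode, and 0 of 33 were called by limma. The smallest p among them was that of KRTAP10-11, at -0.15 (adjusted p = 0.105).

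**Figure D4:**
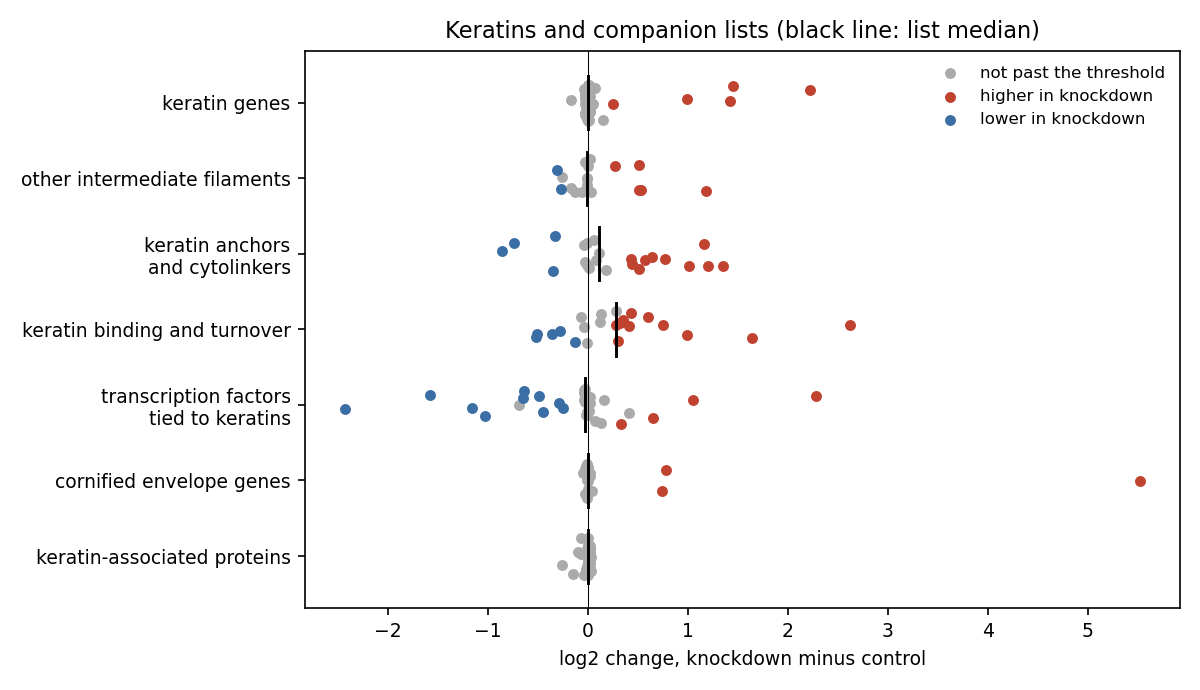
Log2 change, knockdown minus control (horizontal axis), of each measured gene of the keratin family and of 6 companion lists, coloured by whether it was higher (red), lower (blue) or not past an adjusted p of 0.05 (grey), with a black line at the median of each list. KRT7, KRT80, KRT8 and KRT18 lie to the right of the other keratins, the change of KRT19 is 0.25 and that of KRT10 0.15, and anchors and transcription factors have called members on both sides.

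Markers of other cell types were read beside these results. Of 13 luminal breast markers 10 rose (76.9%), beside 19.7% of all genes and 36.5% of those with a mean above the low mode. Of the 10, 4 were the keratins KRT7, KRT8, KRT18 and KRT19. GATA3 fell, with a change of -0.63. The GATA3 probe set of the plain type, dim at 2.34 in control, gave -0.026 without a call. Another, at 4.24 in control, gave -0.40 with groups that did not overlap, also without a call (limma adjusted p = 0.0616). Among the luminal markers that rose were CDH1, the epithelial cadherin, by 5.13 and AGR2 by 2.60. CDH1 was in the low mode in control, with a mean of 2.40, beside 7.5 in knockdown. A second CDH1 probe set, dim in both groups at 2.04 and 2.03, gave -0.0079 without a call. Of 4 markers of the mesenchymal state of the line 3 fell, CD44, AXL and CAV1, with changes of -0.34, -0.26 and -0.25, and the other was VIM. Over all genes 13.9% fell, and 25.4% of those with a mean above the low mode. CD44 has probe sets that disagree. One was called higher at 0.89 (adjusted p = 0.000847). Most of the others were called lower by limma, with changes from -0.46 to -1.01, and the dim ones were not called. The AXL call was lost in the average of its probe sets (adjusted p = 0.149), and that of CAV1 without control replicate 1 (adjusted p = 0.0503) or 3 (adjusted p = 0.0579).

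Of 10 fibroblast markers 2 rose (20%), COL1A1 and LUM, and all but COL1A1 lay in the low mode in both groups. For this and the further lists, the shares over all genes were 19.7% higher and 13.9% lower. COL1A1 changed by 1.01 on its brightest probe set and by 0.17 in the average of its probe sets. The LUM call was lost without any one of control replicates 1, 2 and 3 or knockdown replicates 2 and 3 (adjusted p up to 0.111). The log2 of their summed level was 8.52 to 8.75 in control and 9.47 to 9.54 in knockdown. All 8 measured leukocyte markers, PTPRC among them, lay in the low mode, where 1 rose (CD3D) and 2 fell (CD14 and LYZ), with a log2 summed level of 6.31 to 6.42 in control and 6.25 to 6.26 in knockdown. The LYZ call was lost in the average of its probe sets (-0.091, adjusted p = 0.0936), and its other probe set gave -0.0011. Of 8 measured basal and myoepithelial markers TAGLN rose, and CDH3 and CNN1 lay in the low mode beside KRT5 and KRT14. Of 10 keratinocyte markers FLG rose, and KRT1, KRT2, IVL and LORICRIN lay in the low mode in both groups. The log2 summed level of the keratinocyte list was 12.2 to 12.3 in control and 12.4 to 12.5 in knockdown, and the list holds KRT10. Of 4 hepatocyte markers SERPINA1 fell, with a change of -3.91. Another bright SERPINA1 probe set was also called lower, at -4.70 (limma adjusted p = 1.25e-05), and 2 dim ones gave -0.49 and -0.0083 without a call. The 2 measured erythroid markers lay in the low mode. The part of these markers in the keratin result was not tested. In RNA from a whole culture, more cells with a keratin and more RNA per cell cannot be told apart.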

How the data were processed

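Per the labels' protocols, 250 ng of total RNA was labelled with biotin by a 3' in vitro transcription kit, and Affymetrix U133 Plus 2.0 arrays were used. The deposited values are log2 expression values; the scale was read from their range, 0.826 to 16.6, and how they were summarised and normalized is not given in the sources used here. The submitters' processing notes name Partek with no version. Of 54675 probe sets, 62 controls were left out, the 2016 platform annotation gave 1 symbol to 41091, several to 1801 and none to 11721. Symbols were checked by Entrez ID against GRCh38.p14, with 0 updated. The brightest single-symbol probe set stood for a gene. Groups came from the titles, and 0 columns were unmatched.

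Groups were compared with limma 3.58.1 (R 4.3.3; lmFit, eBayes, two-sided, no covariates) over all 19775 genes, with Benjamini-Hochberg adjustment at 0.05. Other probe sets were read from the same fit over 54613 probe sets. The members and lists were chosen with earlier results of these data known. Named were all keratins called, KRT5, KRT7, KRT8, KRT14, KRT18 and KRT19, and of each companion list up to 3 largest increases and decreases among called members whose groups did not overlap, or the smallest p. KRT10 and KRT15 were added after their values were seen. On simulated data for this comparison over 19775 genes the fit recovered 28% of genes changed by 0.3, 60% at 0.5, 92% at 1 and 100% at 2. Only 50 genes were changed at each size, while 3895 rose and 2749 fell in the real data. The adjusted threshold therefore differs, and these shares need not hold for the real comparison. Same-numbered arrays did not deviate together (correlations -0.24, -0.16 and 0.047), so the numbers were not used as pairs. Alternatives covered normalization, dim genes, probe set choice, the variance prior, array weights, a replicate block, thresholds, neighbouring genes and leaving out each array.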

Additional observations from a re-analysis of the deposited data

Results flagged for a closer look

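A probe set given to KRT10-AS1, the antisense gene beside KRT10 that is outside the keratin rule, carried a signal above its level in the control arrays. It read 9.56, 9.44 and 9.46 in control and 10.09, 10.25 and 10.20 in knockdown, a change of 0.69. KRT10 itself changed by 0.15.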

How the results depend on the processing

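The calls of KRT8 and KRT80 kept their direction and passed under every alternative that gave a value, with changes of 1.37 to 1.47 and 1.37 to 1.48. With s_at and x_at probe sets left out, KRT8 and KRT18 had no value, KRT7 was not called, and 2 keratins rose (KRT19 and KRT80); 20 companion genes rose, beside 33 of 147 in the main setting. Against a change beyond 2-fold (limma treat), 3 keratins rose (KRT7, KRT8 and KRT80; adjusted p = 1.91e-05, 0.00371 and 0.000781), 4 companion genes rose and 2 fell, and 314 of all genes rose and 235 fell. KRT18 and KRT19 did not pass that test. With the replicate block, 5 keratins rose, as without it, 31 companion genes rose and 19 fell, and 3513 of all genes rose; 1 of 6 arrays correlated best with its own number in the other group. Leaving out each array gave 5 to 6 keratins higher and 0 to 1 lower, 30 to 35 companion genes higher and 20 to 21 lower, and 3390 to 3870 of all genes higher and 2444 to 2587 lower. KRT10 passed under 5 of 18 alternatives, with changes of 0.11 to 0.19 over all 18. Among other named genes, LUM and TAGLN turned to -0.012 and -0.039 with s_at and x_at probe sets left out, on dim probe sets. Signal in the low mode limits what can be said of 37 keratins.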
